A study of Homo sapiens with 9 samples.

Results

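Depletions of 2 related transcription factors in one cell line were set directly against each other, 786-O cells that carried a short hairpin RNA (shRNA) against BMAL1 and 786-O cells that carried one against ARNT. All 3 shBMAL1 libraries and all 3 shARNT libraries were taken, which made 6 of the 9 libraries of the series. The other 3 libraries, from cells with a control shRNA (shControl), did not enter the fit, and their levels are given beside some genes only for orientation. The study asked how much ARNT and BMAL1 each contribute to gene expression driven by HIF2α. 786-O, an established human kidney cancer line (clear cell type), has no working VHL protein, and HIF2α, the product of EPAS1, is therefore present at normal oxygen. All 9 cultures share this background, lentiviral delivery of the hairpin in a PLKO.1 vector, puromycin selection and growth in medium with serum. The labels give the genotypes WT (shControl), ARNT knockdown and BMAL1 knockdown, and each group has 1 hairpin, so an effect of the targeted gene and any effect particular to that hairpin cannot be told apart. The labels call the libraries biological replicates without saying whether they came from separate infections, so p values measure only the spread between these samples, which may be technical.

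BMAL1 (listed as ARNTL in the deposited table) and ARNT are class II members of the bHLH-PAS family of transcription factors, which bind DNA as pairs with a class I partner. BMAL1 with CLOCK or NPAS2 drives the circadian clock through E-box sequences and turns on its own repressors, among them the PER, CRY and REV-ERB genes. ARNT with HIF1α or HIF2α drives the response to low oxygen through hypoxia response elements, whose core letters resemble the E-box, and in cells without VHL this response is on at normal oxygen.

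Library totals ran from 33793045 to 35406471 reads. Between 2 libraries of one group the median absolute log2 difference over genes with at least 100 normalised counts was 0.091 to 0.129, and between a shBMAL1 and a shARNT library it was 0.214 to 0.227. Of the reads, 8.38% ± 0.38 (SD, n = 3) in shBMAL1 and 7.44% ± 0.61 in shARNT came from genes of the mitochondrial genome, a difference with an exact permutation p of 0.2 (two-sided, smallest possible 0.1). Histone reads, which are rare in libraries selected for poly(A), made up 0.0054% in shBMAL1 and 0.0037% in shARNT (exact permutation p = 0.1, the smallest possible), and their part in the results was not tested. All 8 renal markers checked were expressed, with summed levels of 166610 to 184140 normalised counts in shBMAL1 and 173090 to 177890 in shARNT. Of 12 markers of immune, endothelial, fibroblast and embryonic kidney packaging cells, 7 had any read, and their sum was 226 to 261 in shBMAL1 and 105 to 112 in shARNT. Nearly all of that sum was LUM, a matrix proteoglycan, with 201, 194 and 177 in shBMAL1 and 74.9, 79.6 and 74.4 in shARNT, and PDGFRA, a growth factor receptor, with 27.1, 46.9 and 36.7 in shBMAL1 and 11.8, 4.97 and 12.1 in shARNT. These fibroblast markers were higher in shBMAL1 (log2 fold change 1.32 ± 0.20 SE, adjusted p = 4.89e-10 for LUM), the fibroblast marker DCN had too few reads to test, and CD3E, CDH5, VWF, LIN28A and LIN28B had no read. The part of other cells in the results was not tested, and in bulk RNA a change in the number of cells and a change in RNA per cell cannot be told apart.

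Gene expression differed widely between the 2 knockdowns. Of 18181 genes tested with DESeq2, 6409 (35.3%) were called at an adjusted p under 0.1. Of all genes tested, 3139 (17.3%) were higher in shBMAL1 and 3270 (18%) were higher in shARNT. Most of these differences were small, with a median absolute log2 fold change of 0.41 among called genes and a median of 0.0094 over all genes tested. Differences of at least 2-fold were less balanced: 747 genes (4.11% of those tested) were higher in shBMAL1 and 284 (1.56%) were higher in shARNT. Many of these had few reads: 419 and 145 had a mean under 50 normalised counts, and 242 and 102 had a mean of at least 100. The share of genes called was 12.7% below a mean of 50 normalised counts and 60.4% in the most abundant genes, so a missing call at low counts says little. The 3 libraries of one group lay entirely above the 3 of the other for 8002 genes (44% of those tested), including 6038 of the 6409 called genes. Throughout, a log2 fold change is shBMAL1 over shARNT, so a positive value means more transcript in shBMAL1 cells, and ± after it is its standard error (SE). Adjusted p values are those of DESeq2 over all genes tested, and normalised read counts are counts divided by a size factor for each library.

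The targeted genes stood as the labels say. ARNT, on the minus strand of chr1:150782189-150849184 (GRCh37), gave normalised read counts of 2091, 1951 and 2069 in shBMAL1 and 1254, 1254 and 1213 in shARNT (log2 fold change 0.72 ± 0.08 SE, adjusted p = 2.94e-19). ARNTL, the gene of BMAL1, on the plus strand of chr11:13298199-13408813, gave 349, 296 and 344 in shBMAL1 and 684, 665 and 574 in shARNT (log2 fold change -0.96 ± 0.12 SE, adjusted p = 1.47e-13). Each targeted transcript was lower in its own knockdown, and the groups did not overlap. The shControl mean was 2384 ± 187 (SD, n = 3) for ARNT and 771 ± 32.6 for ARNTL. Against it, ARNT had a log2 ratio of means of -0.94 in shARNT and ARNTL one of -1.23 in shBMAL1, so both transcripts were lowered and neither was lost. The other factor's transcript was also somewhat below shControl, with log2 ratios of -0.23 for ARNT in shBMAL1 and -0.27 for ARNTL in shARNT, which were not tested here.

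**Figure D1:**
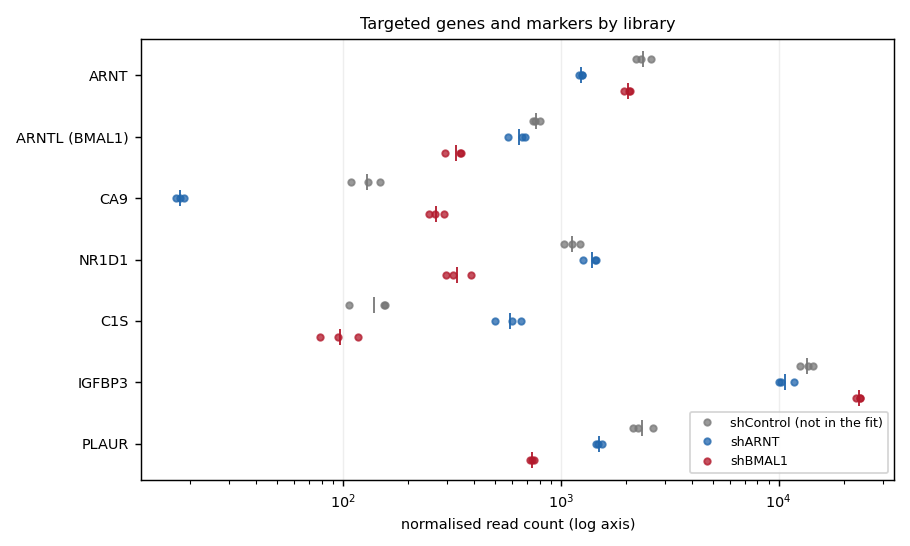
Normalised read counts (log axis) of the targeted genes and 5 marker genes in each library, with shControl in grey, shARNT in blue, shBMAL1 in red and a vertical tick at each group mean. CA9 and IGFBP3 were higher in shBMAL1, whereas NR1D1, C1S and PLAUR were higher in shARNT, and in none of the 5 did the shBMAL1 and shARNT libraries overlap.

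The marker genes show how far the knockdowns lay apart, in both directions. CA9 encodes carbonic anhydrase 9, a cell surface enzyme of pH control and a classic HIF target (chr9:35673925-35681156, plus strand). It was at 293, 264 and 248 in shBMAL1 and 18.7, 17.9 and 17.1 in shARNT (log2 fold change 3.90 ± 0.26 SE, adjusted p = 4.49e-48). The shControl mean of 129 ± 19.2 lay between the groups. NR1D1, which encodes the clock repressor REV-ERBα (chr17:38249046-38256842, minus strand), went the other way, with 388, 297 and 321 in shBMAL1 and 1452, 1272 and 1444 in shARNT (log2 fold change -2.05 ± 0.11 SE, adjusted p = 3.48e-72). Here the shControl mean of 1129 ± 95.2 lay near shARNT. The complement protease gene C1S (chr12:7096351-7178336, plus strand) was at 117, 94.9 and 78.4 in shBMAL1 and 600.3, 655 and 502 in shARNT (log2 fold change -2.60 ± 0.17 SE, adjusted p = 4.00e-53). The shControl mean was at 139.6 ± 28.6, near shBMAL1. IGFBP3, whose product binds insulin-like growth factors (chr7:45951844-45961473, minus strand), was at 23680, 23568 and 22723 in shBMAL1 and 11816, 10277 and 10011 in shARNT (log2 fold change 1.12 ± 0.07 SE, adjusted p = 3.41e-54). PLAUR, the urokinase receptor gene (chr19:44150247-44174699, minus strand), was at 740.4, 721 and 757 in shBMAL1 and 1456, 1539.9 and 1482 in shARNT (log2 fold change -1.01 ± 0.08 SE, adjusted p = 2.58e-31). Both knockdowns lay below the shControl mean of 2353 ± 270.3. CA9 overlaps ARHGEF39 and NR1D1 overlaps THRA on the opposite strand, and whether the counting used strand is not given in the sources used here, so reads of these neighbours could be included.

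The 8 genes with the largest fold change toward shBMAL1, taken from called genes whose mean was 100 normalised counts or more, were led by SERPINF2, CA9 and ITIH2. SERPINF2, which encodes the plasmin inhibitor α2-antiplasmin, was at 649, 596 and 574 in shBMAL1 and 32.5, 38.8 and 36.2 in shARNT (log2 fold change 4.08 ± 0.19 SE, adjusted p = 1.59e-103). ITIH2, a heavy chain of the inter-α-trypsin inhibitor, was at 476, 435 and 451 in shBMAL1 and 29.6, 35.8 and 36.2 in shARNT (log2 fold change 3.75 ± 0.20 SE, adjusted p = 1.20e-77). EDN1, which encodes the vasoconstrictor endothelin-1, was at 1499.9, 1428 and 1409.6 in shBMAL1 and 127, 147 and 133 in shARNT (log2 fold change 3.41 ± 0.11 SE, adjusted p = 5.41e-192). The semaphorin gene SEMA5B had the highest counts of this group, with 7689.9, 7152 and 6742 in shBMAL1 and 871, 837 and 707 in shARNT (log2 fold change 3.16 ± 0.09 SE, adjusted p = 2.02e-293). CA9, the transporter gene SLCO4C1 (3.27 ± 0.26), FGD5, an activator of the GTPase CDC42 (3.14 ± 0.26), and the uncharacterised LOC105376878 (3.61 ± 0.18) completed the 8. For SERPINF2 the shControl mean of 42.1 ± 4.54 was close to shARNT, whereas for EDN1 the shControl mean of 703 ± 67.4 lay between the knockdowns.

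Toward shARNT, the 8 genes with the largest fold change were led by GPNMB and L1CAM. GPNMB, a glycoprotein of lysosomes and the cell surface, was at 249, 222 and 232 in shARNT and 17, 11.2 and 18.8 in shBMAL1 (log2 fold change -3.90 ± 0.28 SE, adjusted p = 6.46e-42), with shControl at 29.2 ± 6.67. L1CAM, a neural cell adhesion molecule, was at 236, 185 and 194 in shARNT and 15, 13.3 and 28.8 in shBMAL1 (log2 fold change -3.43 ± 0.29 SE, adjusted p = 5.10e-31). S1PR1, a receptor for sphingosine-1-phosphate, was at 257, 308 and 284 in shARNT and 52.1, 34.7 and 39.7 in shBMAL1 (log2 fold change -2.75 ± 0.21 SE, adjusted p = 6.00e-36). In all 3 the groups lay far apart, and the shARNT libraries were above the shControl mean. OSTM1, a partner of a lysosomal chloride transporter, was at 2882, 3046 and 2944 in shARNT and 489.9, 703 and 621 in shBMAL1 (log2 fold change -2.29 ± 0.10 SE, adjusted p = 5.10e-104). HMGA1, an architectural chromatin protein, was at 547, 609 and 476 in shARNT and 96.2, 111 and 135 in shBMAL1 (log2 fold change -2.25 ± 0.16 SE, adjusted p = 3.66e-43), and its shControl mean of 683 ± 105 was above both knockdowns. The others were C1S, the membrane protein gene EMP1 (-2.20 ± 0.20) and MAPK8IP2, a scaffold for JNK kinases (-2.12 ± 0.24).

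The 25 gene lists separated the comparison into programs that moved mostly one way and programs that were mixed. For each list the number of tested members called in each direction and the median log2 fold change of the tested members are given, to be read beside the 17.3% and 18% of all genes that were called higher in shBMAL1 and in shARNT and the median of 0.0094 over all genes. Clock output, proteasome and NRF2 target genes lay toward shARNT. Secreted hypoxia signals, matrix proteases, complement, liver-type plasma proteins, collagens and the integrated stress response lay toward shBMAL1.

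**Figure D2:**
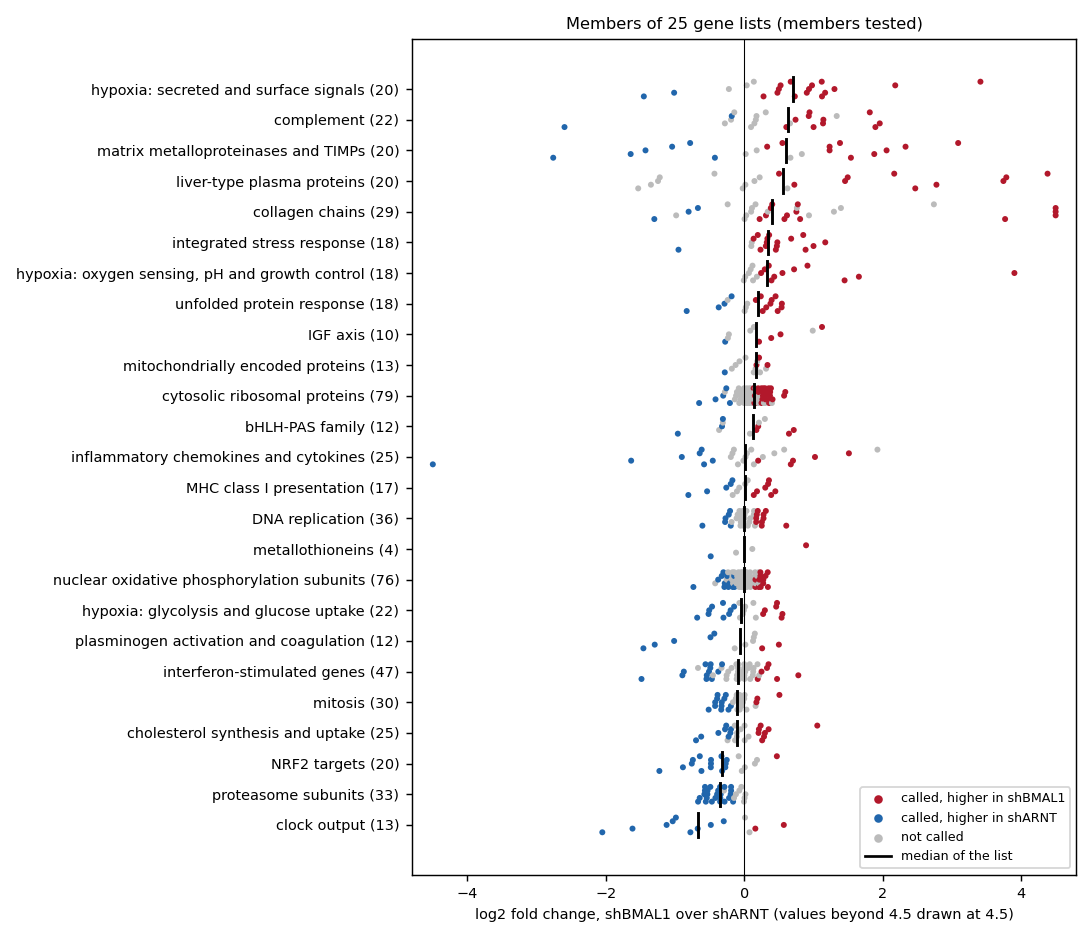
Log2 fold change (shBMAL1 over shARNT) of each tested member of 25 gene lists, with the number tested in brackets, red points called higher in shBMAL1, blue points called higher in shARNT, grey points not called, and a black bar at the list's median. The medians run from -0.67 for clock output to 0.70 for secreted and surface hypoxia signals.

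Genes of clock output were mostly higher in shARNT than in shBMAL1. Of 13 tested members, 9 were higher in shARNT, 2 were higher in shBMAL1 and 2 were not called, with a median log2 fold change of -0.67. Both REV-ERB repressor genes were among the 9: beside NR1D1, NR1D2 was at 1829.6, 1864 and 2211 in shARNT and 754, 1049.6 and 909.6 in shBMAL1 (log2 fold change -1.12 ± 0.11 SE, adjusted p = 1.25e-21). Of the PER and CRY repressors, PER3 differed most, with 1542, 1545 and 1495 in shARNT and 528, 547 and 422 in shBMAL1 (log2 fold change -1.61 ± 0.10 SE, adjusted p = 3.03e-53). PER1 was at 534, 544 and 533 in shARNT and 335, 324 and 352 in shBMAL1 (log2 fold change -0.67 ± 0.11 SE, adjusted p = 7.48e-08). CRY1 was at 1711, 1809.5 and 1827 in shARNT and 1324, 1546 and 1486 in shBMAL1 (log2 fold change -0.30 ± 0.08 SE, adjusted p = 2.30e-03). CRY2 went the other way, with 269, 272 and 306 in shARNT and 406, 404 and 448 in shBMAL1 (log2 fold change 0.57 ± 0.13 SE, adjusted p = 8.55e-05). PER2 was not called (0.076 ± 0.13, adjusted p = 0.72), with overlapping groups.

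The PAR-bZIP factors carry clock output to metabolic genes. DBP was at 118, 94.5 and 116 in shARNT and 44.1, 54.1 and 67.5 in shBMAL1 (log2 fold change -0.99 ± 0.26 SE, adjusted p = 7.93e-04). TEF was at 305, 320.3 and 309 in shARNT and 161, 195 and 188 in shBMAL1 (log2 fold change -0.78 ± 0.15 SE, adjusted p = 2.43e-06). HLF was low, with means of 19.4 ± 3.26 in shBMAL1 and 19.3 ± 1.72 in shARNT, and was not called (0.011 ± 0.48). The third group, repressors that act at E-boxes, held CIART, with 588, 598 and 596 in shARNT and 314, 305 and 252 in shBMAL1 (log2 fold change -1.03 ± 0.12 SE, adjusted p = 1.40e-15). BHLHE41 was at 1514, 1271 and 1311 in shARNT and 1039, 1017 and 876 in shBMAL1 (log2 fold change -0.48 ± 0.10 SE, adjusted p = 1.21e-05). BHLHE40, which is also a known hypoxia target, was slightly higher in shBMAL1 (0.16 ± 0.07, adjusted p = 0.086). The BHLHE40 call was lost without shBMAL1 replicate 1 (adjusted p = 0.286), without shARNT replicate 1 (0.122) and without shARNT replicate 3 (0.392), which leaves 1 member called higher in shBMAL1. For 8 of the 11 called members the shControl mean lay between the knockdowns, and in some of them it lay near one. The shControl means of DBP (53 ± 9.15) and CIART (323 ± 25.2) were close to shBMAL1, with shARNT above. NR1D1, PER3, DBP and others of these genes overlap a gene on the opposite strand.

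**Figure D3:**
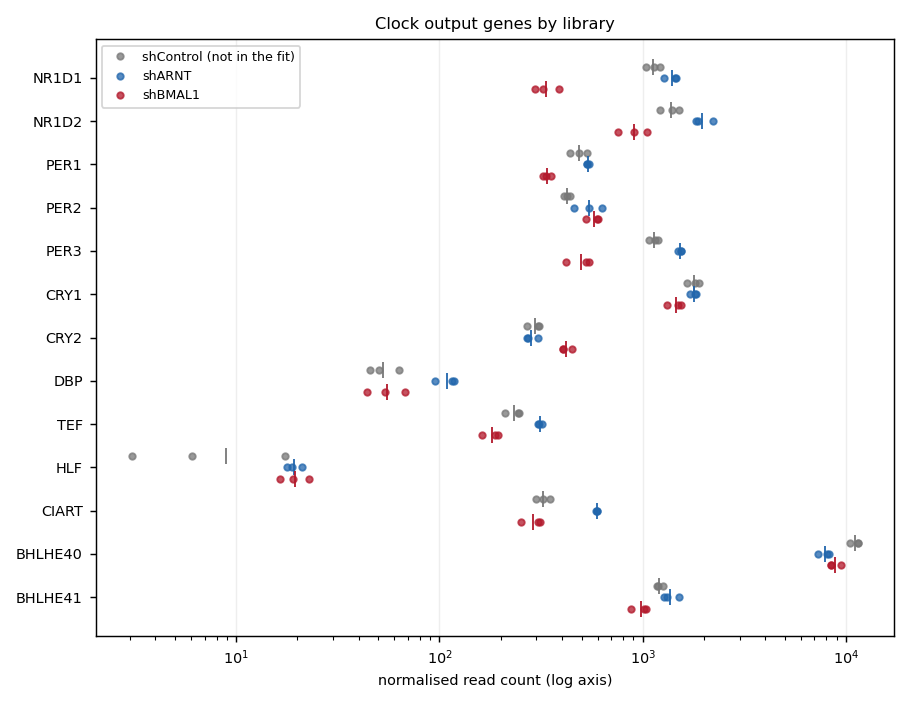
Normalised read counts (log axis) of the 13 clock output genes in each library, with shControl in grey, shARNT in blue, shBMAL1 in red and a tick at each group mean. The shARNT libraries lie above the shBMAL1 libraries for 9 genes, furthest for NR1D1 and PER3, whereas CRY2 and BHLHE40 go the other way and PER2 and HLF overlap.

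E-box letters were present near the starts of several of these genes. In RefSeq promoters (GRCh38.p14, 250 bases before to 50 after the gene start), CACGTG, which reads the same on both strands, was present in 5 of 13 clock output genes (38.5%) and in 9.61% of the 12977 tested genes with a promoter in the table. The stretches of 30 bases around it are shown for the 4 such members that were higher in shARNT, to set the letters beside the values above, with CACGTG in capitals. They lie at chr17:8152560-8152589 (PER1, minus strand), chr22:41367248-41367277 (TEF, plus strand), chr1:150282413-150282442 and chr1:150282471-150282500 (CIART, plus strand) and chr12:26125068-26125097 (BHLHE41, minus strand).
PER1: agcacccaggtcCACGTGcgcccgtgtgtg
TEF: gcgcgacagctcCACGTGctgcagctggcg
CIART, first: agtaactagagtCACGTGttaccggcgaca
CIART, second: agcagggggaggCACGTGccgggccgcacg
BHLHE41: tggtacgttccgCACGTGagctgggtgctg
CIART held the letters 3 times in its window, and the fifth member with a match was BHLHE40. A match is a description of letters, and the absence of a match, as for NR1D1 and PER3, says only that the letters are not in this window.

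Other bHLH-PAS genes, which include class I partners and paralogs of ARNT and BMAL1, were called in both directions. Of 12 tested members including the targeted genes, 4 were higher in shBMAL1 and 3 were higher in shARNT. CLOCK, the class I partner of BMAL1, was at 1733, 1710 and 1826 in shARNT and 1389.7, 1434 and 1431 in shBMAL1 (log2 fold change -0.31 ± 0.08 SE, adjusted p = 3.58e-04). The BMAL1 paralog ARNTL2 (BMAL2) was at 1254, 1207 and 1387 in shARNT and 996, 954 and 1129.9 in shBMAL1 (log2 fold change -0.32 ± 0.10 SE, adjusted p = 3.96e-03). AHR, the aryl hydrocarbon receptor, which also pairs with ARNT, was at 5404, 6034 and 5711 in shBMAL1 and 3432, 3885 and 3640.2 in shARNT (log2 fold change 0.65 ± 0.07 SE, adjusted p = 2.15e-17), with shControl at 2826 ± 135, below both. HIF1A was at 4026, 4086 and 3972 in shBMAL1 and 3516, 3498 and 3492 in shARNT (log2 fold change 0.20 ± 0.06 SE, adjusted p = 5.70e-03). EPAS1, the gene of HIF2α, was at 11428, 10366 and 10537 in shBMAL1 and 10036, 9716 and 8873 in shARNT (0.18 ± 0.07, adjusted p = 0.039), a small difference whose call was lost without shBMAL1 replicate 1 (adjusted p = 0.133) or shARNT replicate 3 (0.251). NPAS2 (0.082 ± 0.12), ARNT2 (0.21 ± 0.11), SIM1 (0.30 ± 0.16), AHRR and NPAS1 were not called, and NPAS3 had too few reads to test. ARNT2 was called higher in shBMAL1 with edgeR (adjusted p = 0.091) and in the fit of all 9 libraries (0.0863). SIM1 was called with edgeR (0.0726), with the count filter (0.0963) or without shBMAL1 replicate 1 (0.0629).

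Hypoxia-responsive genes were taken in 3 functional lists. The genes of glycolysis and glucose uptake were mixed, with 6 of 22 tested members higher in shBMAL1, 9 higher in shARNT and a median of -0.041. LDHA, which encodes lactate dehydrogenase A, was at 117230, 117390 and 108850 in shBMAL1 and 76606, 81515 and 76132 in shARNT (log2 fold change 0.55 ± 0.06 SE, adjusted p = 1.95e-18). HK2, the inducible hexokinase, was at 944, 868 and 885 in shBMAL1 and 683, 540.2 and 632 in shARNT (log2 fold change 0.54 ± 0.11 SE, adjusted p = 4.80e-06). The glucose transporter gene SLC2A1 was at 54150, 49323 and 46228 in shBMAL1 and 35905, 37812 and 34065 in shARNT (log2 fold change 0.47 ± 0.07 SE, adjusted p = 4.52e-10). These 3 were higher in shBMAL1. In the other direction, the neuronal-type glucose transporter gene SLC2A3 was at 2229.8, 2119 and 1846 in shARNT and 1451, 1191 and 1224 in shBMAL1 (log2 fold change -0.68 ± 0.10 SE, adjusted p = 7.03e-11). PFKFB4, a regulator of glycolytic flux, was at 709.8, 639 and 725 in shARNT and 482, 422 and 546 in shBMAL1 (log2 fold change -0.52 ± 0.12 SE, adjusted p = 9.90e-05). The enzymes PGK1 (-0.062 ± 0.06), ALDOA (-0.021 ± 0.07) and TPI1 (-0.0049 ± 0.06) were not called.

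Genes of oxygen sensing, pH and growth control were one-sided: 11 of 18 tested members were higher in shBMAL1, none was higher in shARNT and 7 were not called, with a median of 0.33. None was higher in shARNT with edgeR or at an unadjusted DESeq2 p under 0.05 either (0 and 0 members). EGLN3, an oxygen-sensing prolyl hydroxylase that marks HIFα for destruction, was at 6649, 6169 and 5734 in shBMAL1 and 1963, 1981 and 1940.3 in shARNT (log2 fold change 1.66 ± 0.07 SE, adjusted p = 1.90e-111). NDRG1, a growth and stress regulator, was at 51416, 42564 and 43253 in shBMAL1 and 16436, 18836 and 14955 in shARNT (log2 fold change 1.45 ± 0.09 SE, adjusted p = 3.91e-57), and its shControl mean of 51315 ± 2359 was near shBMAL1. Together with CA9 these were the members furthest apart. DDIT4, an inhibitor of mTORC1, was at 14312, 10220 and 11924 in shBMAL1 and 6169.9, 6142 and 7037 in shARNT (log2 fold change 0.91 ± 0.10 SE, adjusted p = 1.46e-18). The related hydroxylase gene EGLN1 (0.015 ± 0.11) and the histone demethylase gene KDM3A (0.093 ± 0.07) were not called. The collagen prolyl hydroxylase genes P4HA1 (0.43 ± 0.07) and P4HA2 (0.30 ± 0.06) were higher in shBMAL1.

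Secreted and surface signals of the hypoxia response lay toward shBMAL1, with 15 of 20 tested members higher in shBMAL1, 2 higher in shARNT and a median of 0.70. Among angiogenic and vascular signals, EDN1 led. PDGFB, a growth factor for pericytes, was at 341, 332 and 414 in shBMAL1 and 159, 139 and 142 in shARNT (log2 fold change 1.30 ± 0.16 SE, adjusted p = 4.08e-15). VEGFA, an angiogenic growth factor, was at 7623, 7331 and 8525 in shBMAL1 and 4517, 4069.6 and 3960.1 in shARNT (log2 fold change 0.90 ± 0.08 SE, adjusted p = 1.29e-29). The shControl mean of VEGFA, 10742 ± 305, was above both knockdowns. ADM, which encodes the vasodilator adrenomedullin, was at 2494, 1977 and 2197 in shBMAL1 and 1284, 1096 and 1104 in shARNT (log2 fold change 0.94 ± 0.10 SE, adjusted p = 1.03e-19), while ANGPTL4, a regulator of lipid uptake, was not called (0.036 ± 0.10). Growth signals included PTHLH, the parathyroid hormone-related protein gene, at 685, 608 and 692 in shBMAL1 and 314, 308 and 291 in shARNT (log2 fold change 1.12 ± 0.12 SE, adjusted p = 3.54e-20). TGFA, a ligand of the EGF receptor, was at 10402, 9605 and 9106 in shBMAL1 and 6616, 6536 and 7074 in shARNT (log2 fold change 0.53 ± 0.07 SE, adjusted p = 8.87e-13).

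The chemokine receptors of this list went opposite ways. ACKR3, a scavenging receptor for CXCL12, was at 809, 624 and 524 in shBMAL1 and 129, 157 and 145 in shARNT (log2 fold change 2.18 ± 0.16 SE, adjusted p = 1.63e-38). CXCR4, the signalling receptor for the same ligand, was at 20, 19.4 and 14.9 in shBMAL1 and 48.3, 45.8 and 54.3 in shARNT (log2 fold change -1.45 ± 0.38 SE, adjusted p = 1.02e-03). Both receptors had shControl means above both knockdowns, 1357 ± 59.8 for ACKR3 and 70.6 ± 14.2 for CXCR4. LOXL2, an enzyme that cross-links collagen, was at 30022, 25440 and 30169 in shBMAL1 and 15628, 13676 and 14127 in shARNT (log2 fold change 0.98 ± 0.08 SE, adjusted p = 7.11e-34), and PLAUR was the other member higher in shARNT.

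**Figure D4:**
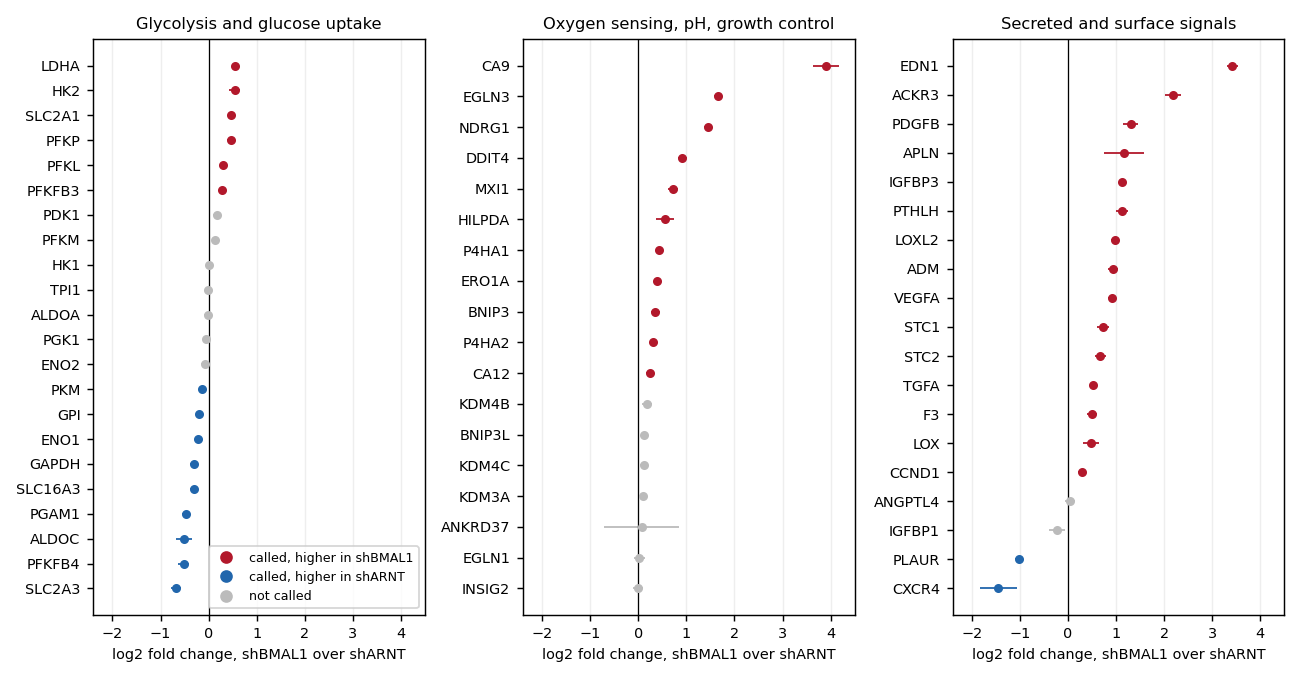
Log2 fold change (shBMAL1 over shARNT) of tested hypoxia-responsive genes in 3 functional lists, with bars of 1 SE, red called higher in shBMAL1, blue called higher in shARNT and grey not called. Glycolysis genes fall on both sides of 0, no gene of oxygen sensing, pH and growth control was called higher in shARNT, and CXCR4 and PLAUR are the exceptions among called secreted and surface signals.

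The core letters of the hypoxia response element, ACGTG, were searched on both strands of the same promoters; they lie inside CACGTG, so those matches count for both. They were present in 10 of 15 promoters of the oxygen sensing, pH and growth list (66.7%), 8 of 21 of the glycolysis list (38.1%), 4 of 12 of the secreted list (33.3%) and 25.7% of all 12977. The other form, GCGTG, was present in 8 of 15 (53.3%), 10 of 21 (47.6%), 8 of 12 (66.7%) and 47.9%. For 4 members higher in shBMAL1 a stretch of 30 bases is shown with ACGTG, or CACGT where it lies on the other strand, in capitals, so that the letters can be compared with the E-boxes above. ACGTG was also present for members higher in shARNT, namely PLAUR, ALDOC, GAPDH and GPI. The GPI call was lost without shBMAL1 replicate 2 (adjusted p = 0.152) and the ALDOC call without shARNT replicate 3 (0.167). The 4 stretches shown lie at chr9:35673898-35673927 (CA9, plus strand), chr10:72273787-72273816 (DDIT4, plus strand), chr6:12287914-12287943 (EDN1, plus strand) and chr10:73096935-73096964 (P4HA1, minus strand).
CA9: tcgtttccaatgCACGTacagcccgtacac
DDIT4: agaacgttgcttACGTGcgcccggagtcca
EDN1: cggatggctggcCACGTtttgtgtttccaa
P4HA1: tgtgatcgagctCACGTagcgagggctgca
None of these 4 stretches holds the full E-box, but other promoters of the hypoxia lists do, with CACGTG in 4 of 15 of the oxygen sensing list (26.7%), 3 of 21 of the glycolysis list (14.3%) and 0 of 12 of the secreted list. Among the called members of these promoters, BNIP3 and LDHA were higher in shBMAL1, and ALDOC and GAPDH were higher in shARNT. Over all genes with a promoter, CACGTG was present in 7.23% of those called at least 2-fold higher in shBMAL1 and 7.54% of those called at least 2-fold higher in shARNT, both below the 9.61% of all tested genes. For ACGTG these shares were 20% and 17.6%, also below the 25.7% of all. Without the fold limit, the shares among genes called higher in shARNT lay above those of all tested genes. CACGTG was then present in 9.64% of genes called higher in shBMAL1 and 10.8% of genes called higher in shARNT, and ACGTG in 24.5% and 29.1%. GCGTG was present in 36.6% and 33.2% with the fold limit and in 46.8% and 52.1% without it, beside 47.9% of all.

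The plasminogen system turns plasminogen into plasmin, which digests fibrin and matrix. Its proteases and receptor were all higher in shARNT. Besides PLAUR, the urokinase gene PLAU was at 3015, 3409 and 2947 in shARNT and 2387, 2336 and 2222 in shBMAL1 (log2 fold change -0.43 ± 0.08 SE, adjusted p = 3.64e-07). The tissue plasminogen activator gene PLAT was at 128, 176 and 129 in shARNT and 59.1, 51 and 47.6 in shBMAL1 (log2 fold change -1.46 ± 0.24 SE, adjusted p = 3.54e-08). The inhibitor gene SERPINE2 was higher in shARNT (-0.49 ± 0.07). Coagulation was mixed, with tissue factor (F3) higher in shBMAL1 (0.50 ± 0.10) and thrombomodulin (THBD), an anticoagulant receptor, higher in shARNT (-1.29 ± 0.33). In all, 2 of 12 tested members were higher in shBMAL1 and 5 were higher in shARNT, with a median of -0.061. The other member higher in shBMAL1 was TFPI2, a protease inhibitor gene (0.26 ± 0.08), whose call was lost without shARNT replicate 1 (adjusted p = 0.101).

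Matrix metalloproteinases degrade extracellular matrix, and TIMPs inhibit them. Of 17 tested proteases, 9 were higher in shBMAL1 and 4 were higher in shARNT. MMP13, a collagenase, was at 5063, 5058 and 4797 in shBMAL1 and 628, 565 and 557 in shARNT (3.09 ± 0.08), the largest difference among the proteases, and shControl was at 173 ± 12.3. MMP7 was at 959.9, 1016 and 911 in shBMAL1 and 227, 259.6 and 207 in shARNT (log2 fold change 2.06 ± 0.12 SE, adjusted p = 2.41e-66). The gelatinase gene MMP9 was at 190.4, 135 and 133 in shBMAL1 and 54.2, 44.8 and 58.3 in shARNT (log2 fold change 1.54 ± 0.24 SE, adjusted p = 5.76e-09). Each of these 3 was separated without overlap. MMP2, the other gelatinase, had 21460, 17798 and 18760 in shBMAL1 and 8625, 8318 and 7730.1 in shARNT (log2 fold change 1.23 ± 0.08 SE, adjusted p = 2.60e-55). MMP15 went the other way, with 249, 247 and 227 in shARNT and 100.2, 79.6 and 89.3 in shBMAL1 (log2 fold change -1.43 ± 0.18 SE, adjusted p = 2.01e-13), and MMP14, which activates MMP2, was not called (0.021 ± 0.07). Among inhibitors, TIMP2 was at 2795, 2593 and 2549.9 in shARNT and 819, 804 and 923 in shBMAL1 (log2 fold change -1.64 ± 0.08 SE, adjusted p = 9.17e-82) and TIMP1 was slightly higher in shBMAL1 (0.33 ± 0.06). The median of all 20 tested members was 0.61, and it was 0.34 without shBMAL1 replicate 2 and 0.42 without shBMAL1 replicate 3.

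Collagen chains were higher in shBMAL1 for 13 of 29 tested members and higher in shARNT for 3, with a median of 0.40 that was 0.26 without shBMAL1 replicate 1. Without single libraries, 9 to 11 chains were higher in shBMAL1. COL4A5, a basement membrane chain, was at 627, 613 and 706 in shBMAL1 and 415, 372 and 325 in shARNT (log2 fold change 0.81 ± 0.12 SE, adjusted p = 9.02e-10). COL7A1, which forms anchoring fibrils, was at 14793, 13570 and 16718 in shBMAL1 and 9494, 8277 and 8968 in shARNT (log2 fold change 0.75 ± 0.08 SE, adjusted p = 6.99e-19). COL8A1 was at 2160.2, 2400.1 and 2536 in shBMAL1 and 1581, 1626 and 1416 in shARNT (log2 fold change 0.62 ± 0.09 SE, adjusted p = 2.17e-11). COL21A1 was called with few reads, at 39.1, 65.3 and 26.8 in shBMAL1 and 0, 0 and 2.01 in shARNT, and no fold is given because shARNT held so few. Summed counts of all fibrillar chains overlapped between the groups, at 2325.5 to 2605.9 in shBMAL1 and 2044.3 to 2433.8 in shARNT. Of 8 tested fibrillar chains, 4 were higher in shBMAL1, 1 was higher in shARNT and 3 were not called, with a median of 0.77. The 1 higher in shARNT was COL5A2, at 629, 567 and 596 in shARNT and 237, 247 and 244 in shBMAL1 (log2 fold change -1.30 ± 0.12 SE, adjusted p = 3.42e-25), and COL1A1 was not called (0.34 ± 0.20). The fibroblast markers LUM and PDGFRA moved in the same direction as most called collagen chains, with the values given above, and their part was not tested.

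The insulin-like growth factor axis was represented by binding proteins and receptors, since IGF1 and IGF2 had no reads. Of 10 tested members 4 were higher in shBMAL1 and 1, IGFBP6, was higher in shARNT. Among the called members, the largest fold change after IGFBP3 was that of the receptor substrate gene IRS2, at 5726, 5917 and 5595 in shBMAL1 and 4366, 3973 and 3644 in shARNT (log2 fold change 0.52 ± 0.08 SE, adjusted p = 6.87e-11). IGFBP7, another binding protein, was at 16432, 18093 and 15568 in shBMAL1 and 13147, 13107 and 11977 in shARNT (log2 fold change 0.39 ± 0.07 SE, adjusted p = 6.00e-07). IGFBP6 was at 929, 802 and 986 in shARNT and 701, 777 and 766 in shBMAL1 (log2 fold change -0.28 ± 0.10 SE, adjusted p = 2.97e-02). Its call was lost without shBMAL1 replicate 1 (adjusted p = 0.118), shARNT replicate 1 (0.121) or shARNT replicate 3 (0.201). The receptor genes IGF1R (0.14 ± 0.11) and IGF2R (0.087 ± 0.06) were not called.

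Complement is a cascade of plasma proteins that tags cells for clearance. Of 22 tested members 10 were higher in shBMAL1 and 2, C1S and CD46, were higher in shARNT, with a median of 0.64. CFI, the protease that inactivates C3b, was at 3691, 3890.4 and 3491 in shBMAL1 and 1635, 1754 and 1639.6 in shARNT (log2 fold change 1.14 ± 0.07 SE, adjusted p = 4.62e-51). CFI was lowest in shControl, at 909.8 ± 135. C4A was at 275, 273 and 279.7 in shBMAL1 and 72.9, 69.6 and 70.4 in shARNT (log2 fold change 1.96 ± 0.18 SE, adjusted p = 2.08e-25) and its near-identical copy C4B at 234, 309 and 234 in shBMAL1 and 74.9, 69.6 and 64.4 in shARNT (log2 fold change 1.90 ± 0.20 SE, adjusted p = 9.60e-20), so how reads were divided between them is uncertain. CFB, of the alternative pathway, was higher in shBMAL1 (0.94 ± 0.16). C3, the central component, was not called, at 1531, 1531 and 1386 in shBMAL1 and 1873, 1664 and 1537 in shARNT (-0.19 ± 0.09), but kept this result in only 6 of 13 alternatives. It was called higher in shARNT without shBMAL1 replicate 1 (adjusted p = 0.0922) or shARNT replicate 3 (0.043), with edgeR (0.0746), TMM scaling (0.0945), the count filter (0.0921) or the GC correction (0.0552), and in the fit of all 9 libraries (0.0798). C1R, the partner protease of C1S, was not called either (0.18 ± 0.17), with overlapping groups of 342, 245 and 289 in shBMAL1 and 250.4, 312 and 211 in shARNT. CD46, a regulator on the cell surface, was called by a small margin (-0.18 ± 0.07, adjusted p = 0.029), and the call was lost without shBMAL1 replicate 1 (0.104), shARNT replicate 2 (0.135) or shARNT replicate 3 (0.113).

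Plasma proteins that the liver usually makes were called in 1 direction only. Of 52 members 37 had reads and 20 were tested, and 10 of these were higher in shBMAL1, none was higher in shARNT and 10 were not called. With edgeR, and at an unadjusted DESeq2 p under 0.05, 0 members were higher in shARNT as well. SERPINA1, which encodes α1-antitrypsin, was the most abundant in shBMAL1, with 11113, 10239 and 12610 in shBMAL1 and 2522, 2628 and 2410.1 in shARNT (log2 fold change 2.17 ± 0.08 SE, adjusted p = 1.36e-157) and shControl at 5636 ± 119.7. LBP, which binds bacterial lipopolysaccharide, was at 288, 275 and 174 in shBMAL1 and 35.5, 51.7 and 20.1 in shARNT (log2 fold change 2.78 ± 0.28 SE, adjusted p = 3.76e-22). ITIH4, a relative of ITIH2, was at 431, 339 and 334 in shBMAL1 and 74.9, 63.7 and 60.4 in shARNT (log2 fold change 2.47 ± 0.19 SE, adjusted p = 5.78e-38). Fibrinogen chain genes had few reads in shARNT and were low in shBMAL1, FGB with 44.1, 44.9 and 48.6 in shBMAL1 and 1.97, 1.99 and 6.04 in shARNT (log2 fold change 3.79 ± 0.61 SE, adjusted p = 7.30e-09). FGG was at 21, 50 and 32.7 in shBMAL1 and 2.96, 1.99 and 0 in shARNT (adjusted p = 1.09e-06), with no fold given because shARNT held under 3 reads on average. Ceruloplasmin (CP), a copper carrier, was at 5682, 6353 and 6458 in shBMAL1 and 4715, 4474 and 3862 in shARNT (log2 fold change 0.50 ± 0.08 SE, adjusted p = 2.15e-08), and in shARNT it was more abundant than SERPINA1. Defining liver genes were at or near 0, ALB with 1, 6.12 and 0 in shBMAL1 and 0, 2.98 and 2.01 in shARNT and APOA1 with a single read in all 6 libraries. The median of the list was 0.56, and it rested on members with few reads: it was 1.46 when only genes with at least 10 counts in 3 libraries were tested, and without single libraries it was 0.73 to 1.52, highest without shARNT replicate 2.

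Interferon-stimulated genes, which cells turn on against viruses, were called in 18 of 47 tested (38.3%), 6 higher in shBMAL1 and 12 higher in shARNT, with a median of -0.089. The 6 became 3 without shARNT replicate 2 or 3. OASL, a sensor-like protein of the OAS family, was at 480.1, 471 and 461 in shARNT and 156, 177 and 171 in shBMAL1 (log2 fold change -1.48 ± 0.14 SE, adjusted p = 5.60e-26). ISG15, a ubiquitin-like modifier, was at 713, 619.8 and 623 in shARNT and 354, 351 and 363 in shBMAL1 (log2 fold change -0.87 ± 0.11 SE, adjusted p = 5.90e-13). IFI6 went the other way, with 461, 307 and 354 in shARNT and 616, 655 and 659.7 in shBMAL1 (log2 fold change 0.78 ± 0.14 SE, adjusted p = 1.52e-07). Several members were far below shControl in both knockdowns, as OAS2 was with 65.1, 90.5 and 80.5 in shARNT and 64.1, 78.5 and 58.5 in shBMAL1 against 1157 ± 56.6, a level at which the knockdowns were not told apart (adjusted p = 0.58).

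Genes of MHC class I presentation were split, 7 of 17 higher in shBMAL1 and 5 higher in shARNT. The heavy chain gene HLA-C was at 16260, 16241 and 16806 in shBMAL1 and 12181, 12134 and 11796 in shARNT (log2 fold change 0.45 ± 0.06 SE, adjusted p = 3.17e-14). HLA-B was also higher in shBMAL1 (0.34 ± 0.06), although reads of these similar genes can be shared. The peptide transporter genes TAP1 (-0.26 ± 0.07) and TAP2 (-0.54 ± 0.08) were higher in shARNT. So was NLRC5, the activator of class I genes, at 1063, 994 and 1073 in shARNT and 593, 565 and 629.9 in shBMAL1 (log2 fold change -0.81 ± 0.10 SE, adjusted p = 8.57e-16). B2M, the common light chain, was not called (0.051 ± 0.08).

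Inflammatory cytokines were also mixed, with 5 of 25 tested members higher in shBMAL1 and 7 higher in shARNT. IL18 was at 251, 289 and 244 in shARNT and 86.2, 76.5 and 90.3 in shBMAL1 (log2 fold change -1.63 ± 0.18 SE, adjusted p = 2.02e-17). CSF1, the macrophage growth factor, was at 6752, 6949.5 and 6883 in shARNT and 4584, 4362 and 4229 in shBMAL1 (log2 fold change -0.64 ± 0.06 SE, adjusted p = 5.91e-23). IL1B, singled out here for the size of its difference although its mean was below 50, was at 65.1, 70.6 and 48.3 in shARNT and 1, 1.02 and 1.98 in shBMAL1 (adjusted p = 1.73e-10), with no fold given because shBMAL1 held so few reads. It was close to absent in shBMAL1 and present in all shARNT libraries. IL11 was higher in shBMAL1, at 124, 117 and 113 in shBMAL1 and 44.4, 54.7 and 25.1 in shARNT (log2 fold change 1.51 ± 0.28 SE, adjusted p = 8.87e-07). So were CCL2, a monocyte attractant (1.02 ± 0.27), and PTGS2, the inducible cyclooxygenase gene (0.70 ± 0.15). CXCL5, a neutrophil attractant, was higher in shARNT (-0.90 ± 0.17).

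Genes of cytosolic ribosomal proteins lay slightly toward shBMAL1, and proteasome subunit genes lay toward shARNT. Of 79 cytosolic ribosomal protein genes, 32 were higher in shBMAL1, 5 were higher in shARNT and 42 were not called, with a median of 0.15. The differences were small. RPLP0, a stalk protein of the large subunit, was at 33376, 27551 and 27649 in shBMAL1 and 23436, 22524 and 21831 in shARNT (log2 fold change 0.39 ± 0.08 SE, adjusted p = 6.39e-06). RPS16 went the other way and was at 12243, 12253 and 13044 in shARNT and 10228, 8573 and 9356 in shBMAL1 (log2 fold change -0.41 ± 0.07 SE, adjusted p = 1.55e-07). RPS29 (0.59 ± 0.12) and RPS27 (0.58 ± 0.14) were the largest toward shBMAL1. Many processed pseudogenes copy these genes, so their reads are less certain than most.

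Proteasome subunits were higher in shARNT for 25 of 33 members, none was higher in shBMAL1 and 8 were not called, with a median of -0.35. The count higher in shBMAL1 was also 0 with edgeR and 0 at an unadjusted DESeq2 p under 0.05. ADRM1, a ubiquitin receptor of the regulatory particle, was at 5673, 5317 and 5274 in shARNT and 3538, 3234 and 3471 in shBMAL1 (log2 fold change -0.67 ± 0.07 SE, adjusted p = 5.67e-21). PSMD2, a scaffold of the regulatory particle, was at 25057, 25780 and 27910 in shARNT and 18133, 15977 and 16303 in shBMAL1 (log2 fold change -0.64 ± 0.07 SE, adjusted p = 9.74e-19). PSMD13 was at 3737, 3817 and 3999 in shARNT and 2852, 2354 and 2543 in shBMAL1 (log2 fold change -0.58 ± 0.08 SE, adjusted p = 1.30e-11). Calls fell in all parts of the complex, with 11 of 14 members of the 20S core, 3 of 6 ATPases and 11 of 13 other subunits of the regulatory particle called. The catalytic subunit genes PSMB6 (-0.53 ± 0.10) and PSMB7 (-0.57 ± 0.08) were higher in shARNT. By contrast, the interferon-inducible subunit genes PSMB8 (0.014 ± 0.08) and PSMB9 (-0.17 ± 0.11) were not called, although PSMB9 was called without shBMAL1 replicate 1 (adjusted p = 0.0892).

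**Figure D5:**
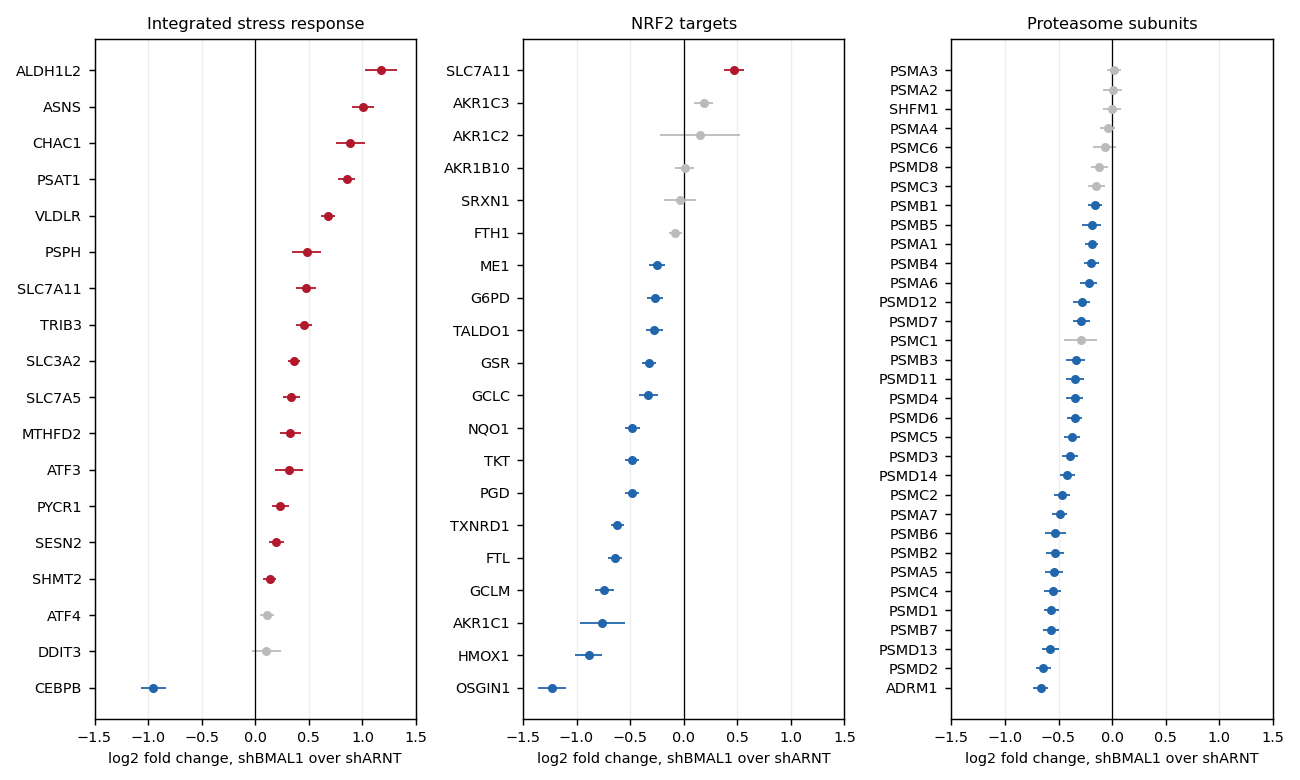
Log2 fold change (shBMAL1 over shARNT) of the tested genes of the integrated stress response, NRF2 targets and proteasome subunits, with bars of 1 SE, red called higher in shBMAL1, blue called higher in shARNT and grey not called. Stress response genes lie to the right of 0 apart from CEBPB, NRF2 targets lie mostly to the left, and no proteasome subunit was called higher in shBMAL1.

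The integrated stress response slows translation while turning on amino acid synthesis through ATF4. All 14 tested target genes of the list were called higher in shBMAL1. Of the whole list with its factors, 15 of 18 tested members were higher in shBMAL1, and 11 to 15 were without single libraries. ALDH1L2, a mitochondrial folate enzyme, was at 424, 581 and 583 in shBMAL1 and 242, 254 and 210.2 in shARNT (log2 fold change 1.17 ± 0.15 SE, adjusted p = 1.21e-13). ASNS, asparagine synthetase, was at 4969.6, 6471 and 6699.8 in shBMAL1 and 2726, 2991 and 3346 in shARNT (log2 fold change 1.00 ± 0.10 SE, adjusted p = 1.36e-20). CHAC1, which degrades glutathione, was at 438, 389.6 and 464 in shBMAL1 and 229, 224 and 246 in shARNT (log2 fold change 0.89 ± 0.13 SE, adjusted p = 1.02e-09). For all 3 the shControl means, 591 ± 16.1, 6824 ± 609 and 485 ± 63.1, were above both knockdowns. Among the 4 factors themselves ATF4 (0.11 ± 0.06) and DDIT3 (0.10 ± 0.14) were not called. ATF3, a stress-induced repressor, was higher in shBMAL1 (0.31 ± 0.13, adjusted p = 0.0569), but its call was lost with the replicate block (0.129), without shBMAL1 replicate 2 (0.266), without shARNT replicate 1 (0.225) or 2 (0.266) and at a threshold of 0.05. CEBPB, a bZIP factor, was higher in shARNT, at 718, 708 and 638 in shARNT and 325, 344 and 399.8 in shBMAL1 (log2 fold change -0.95 ± 0.12 SE, adjusted p = 3.62e-14).

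The unfolded protein response, which raises folding capacity of the endoplasmic reticulum, was called in both directions, with 10 of 18 members higher in shBMAL1, 4 higher in shARNT and a median of 0.20. CALR, a lectin chaperone, was at 58814, 48103 and 50472 in shBMAL1 and 39096, 35181 and 33675 in shARNT (log2 fold change 0.54 ± 0.08 SE, adjusted p = 4.19e-10). The disulfide isomerase gene PDIA3 was at 12949, 11979 and 10781 in shBMAL1 and 8204, 8106 and 8249 in shARNT (log2 fold change 0.54 ± 0.07 SE, adjusted p = 1.81e-12). HSP90B1, the HSP90 of this compartment, was higher in shBMAL1 (0.48 ± 0.05). HYOU1, another chaperone that also responds to low oxygen, was the clearest in the other direction, at 9686, 9438 and 9290.2 in shARNT and 5511, 5272 and 5185 in shBMAL1 (log2 fold change -0.83 ± 0.06 SE, adjusted p = 5.87e-41). XBP1, a factor of the response, was not called (0.023 ± 0.08).

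Targets of NRF2, the factor that answers oxidative stress, were mostly higher in shARNT, 14 of 20 against 1, with a median of -0.32. OSGIN1 was at 559.9, 514 and 493 in shARNT and 208, 225 and 236 in shBMAL1 (log2 fold change -1.23 ± 0.13 SE, adjusted p = 1.04e-19). HMOX1, heme oxygenase 1, was at 855, 870.4 and 708 in shARNT and 406, 402 and 509 in shBMAL1 (log2 fold change -0.89 ± 0.12 SE, adjusted p = 2.15e-11). GCLM, a subunit of the glutathione-synthesising ligase, was at 1309, 1451 and 1272 in shARNT and 786, 815 and 810.5 in shBMAL1 (log2 fold change -0.74 ± 0.09 SE, adjusted p = 3.70e-15). These were separated without overlap. TXNRD1, thioredoxin reductase, was at 15520, 14891 and 15680 in shARNT and 10229, 9773 and 10021 in shBMAL1 (log2 fold change -0.62 ± 0.06 SE, adjusted p = 7.96e-25). All 5 genes of NADPH supply were higher in shARNT. SLC7A11, the cystine transporter gene, was the 1 member higher in shBMAL1, at 1132, 1059 and 1178 in shARNT and 1381, 1662 and 1629 in shBMAL1 (log2 fold change 0.47 ± 0.09 SE, adjusted p = 4.53e-06). It also belongs to the integrated stress response list. AKR1C1 was higher in shARNT (-0.76 ± 0.21), although its reads are hard to tell from those of AKR1C2, and the iron storage gene FTH1 was not called (-0.08 ± 0.06) while FTL was higher in shARNT (-0.64 ± 0.07).

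Cholesterol synthesis and uptake was balanced, with 8 of 25 members called in each direction and a median of -0.10. TM7SF2, a sterol reductase, was at 752, 693 and 645 in shBMAL1 and 346, 319 and 340.0 in shARNT (log2 fold change 1.06 ± 0.11 SE, adjusted p = 1.33e-18). SC5D, a sterol desaturase, was at 1356, 1438 and 1226 in shBMAL1 and 1976, 2329 and 2209.9 in shARNT (log2 fold change -0.70 ± 0.09 SE, adjusted p = 2.19e-13). INSIG1, a brake on the pathway, was higher in shARNT (-0.62 ± 0.10). Of 4 tested metallothioneins, MT1F was higher in shBMAL1, at 347, 411 and 299 in shBMAL1 and 185, 186 and 197 in shARNT (log2 fold change 0.89 ± 0.16 SE, adjusted p = 1.51e-07). MT1X was higher in shARNT (-0.48 ± 0.11), MT2A and MT1E were not called, and reads can be shared within this family.

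Respiratory chain genes were called in both directions. Of 13 genes of the mitochondrial genome 3 were higher in shBMAL1 and 1 was higher in shARNT. The largest difference was cytochrome oxidase subunit 1 (MT-CO1), at 718570, 788650 and 744160 in shBMAL1 and 609730, 571400 and 602060 in shARNT (log2 fold change 0.34 ± 0.06 SE, adjusted p = 3.00e-07). The share of mitochondrial reads given above was 7.93% to 8.60% in shBMAL1 and 6.97% to 8.13% in shARNT. Without shARNT replicate 3, 6 members were higher in shBMAL1, and 5 were without shBMAL1 replicate 1. In the fit of all 9 libraries 1 was higher in shBMAL1 and 0 were higher in shARNT, and without shARNT replicate 2, 2 were higher in shARNT. Of 76 nuclear subunits 12 were called in each direction (31.6%), below the 35.3% of all genes tested, with a median of -0.0074. ATP5B, the catalytic β subunit of ATP synthase, was the 1 tested subunit of that complex higher in shARNT, at 30723, 33002 and 31743 in shARNT and 20365, 18263 and 18746 in shBMAL1 (log2 fold change -0.73 ± 0.06 SE, adjusted p = 6.63e-29). NDUFS1, of complex I, was also higher in shARNT (-0.38 ± 0.07), and UQCR11 (0.34 ± 0.09) and COX7C (0.34 ± 0.10) were higher in shBMAL1. The count of nuclear subunits higher in shARNT was 20 without shBMAL1 replicate 1 and 6 without shARNT replicate 2 or 3, and the count higher in shBMAL1 was 7 without shARNT replicate 1.

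DNA replication genes had 10 of 36 members higher in shBMAL1 and 6 higher in shARNT, with a median of 0.0027. GINS2, of the replicative helicase, was at 1759, 1860.5 and 1519 in shBMAL1 and 1166, 1132 and 1074 in shARNT (log2 fold change 0.61 ± 0.09 SE, adjusted p = 8.16e-10). MCM3 was also higher in shBMAL1 (0.31 ± 0.06). CCNE2, a G1/S cyclin gene, was at 1121, 1331 and 1223 in shARNT and 701, 885 and 830.3 in shBMAL1 (log2 fold change -0.60 ± 0.11 SE, adjusted p = 1.42e-07). The count higher in shBMAL1 was 5 without shARNT replicate 3 and 6 without shARNT replicate 2. Of 30 mitotic genes 12 were higher in shARNT and 3 were higher in shBMAL1, with a median of -0.10. CDC20, the activator of the anaphase-promoting complex, was at 14480, 15122 and 15628 in shARNT and 10918, 10281 and 10474 in shBMAL1 (log2 fold change -0.51 ± 0.06 SE, adjusted p = 7.23e-16). The kinase genes AURKA (-0.42 ± 0.08) and AURKB (-0.42 ± 0.08) followed. TOP2A, topoisomerase II, went the other way, with 15377, 14738 and 14908 in shARNT and 20201, 21629 and 22211 in shBMAL1 (log2 fold change 0.51 ± 0.06 SE, adjusted p = 1.98e-15). The 3 mitotic genes higher in shBMAL1 became 1 without shBMAL1 replicate 2 or 3 or shARNT replicate 1 or 3, and 5 without shBMAL1 replicate 1.

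The position of shControl is a description, since both knockdowns are set beside the same control libraries. Of the 3139 genes higher in shBMAL1, the shControl mean lay between the knockdowns for 1700 (54.2%), below both for 984 (31.4%) and above both for 455 (14.5%). Of the 3270 genes higher in shARNT, it lay between for 1665 (50.9%), above both for 1294 (39.6%) and below both for 311 (9.51%). CFI, MMP13 and AHR are examples with both knockdowns above shControl, and PLAUR, ACKR3 and VEGFA are examples with both below. Fold changes showed almost no relation to gene properties across genes, with a Spearman rho of 0.013 for GC content and -0.015 for transcript length.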

How the data were processed

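RNA from 9 cultures of 786-O cells was sequenced by BGI from libraries that the labels describe as DNBSEQ stranded mRNA. The deposited table held total reads per gene, which the authors made by aligning reads to GRCh37 with SeqMan NGen 17 and counting with ArrayStar 17. The submitters' processing notes instead name STAR, DESeq2 and hg38, and this difference was not resolved. Of the values other than 0, 6.14% were fractional, so the deposited values were treated as estimated counts and rounded to whole numbers. The table gives 0.009 where no read was counted (46.3% of cells), and this was read as 0. The table had 38074 rows. After 53 of them were added to a row with an identical name, 38021 genes remained, and 28 rows carried names turned into dates. Whether strand was used in counting is not given in the sources used here.

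The 3 shBMAL1 and 3 shARNT libraries were compared with the Wald test of DESeq2 1.42.0 in R 4.3.3, with median-of-ratios scaling, independent filtering and Benjamini-Hochberg adjustment over all genes tested. A gene was called at an adjusted p under 0.1. Alternatives were the quasi-likelihood test of edgeR 4.0.16, TMM scaling, a filter of at least 10 counts in 3 libraries, a threshold of 0.05, a fit of all 9 libraries, a replicate block, a GC correction by a loess curve and the omission of each library in turn. The scripts were tested on simulated data.

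The members and gene lists were chosen with earlier results of these data known. Genes were named by a rule: the targeted and marker genes, the 8 called genes with the largest fold change in each direction with a mean of 100 normalised counts or more, all clock output and bHLH-PAS genes, and up to 3 called members of each other list in each direction with a mean of 50 or more. These genes were chosen after their values were seen: ADM, ALB, ALDOA, ANGPTL4, APOA1, ATF3, ATF4, B2M, BNIP3, C1R, C3, CFB, CFI, COL1A1, COL21A1, CP, CXCR4, DCN, DDIT3, DDIT4, EGLN1, FGB, FGG, FTH1, FTL, GAPDH, GCLM, GPI, HLA-B, IGF1R, IGF2R, IL1B, KDM3A, LOXL2, LUM, MMP14, MMP2, MT1E, MT2A, OAS2, P4HA1, P4HA2, PDGFRA, PGK1, PLAU, PSMB6, PSMB7, PSMB8, PSMB9, PTHLH, RPLP0, SERPINA1, SERPINE2, TGFA, TIMP1, TPI1, TXNRD1, VEGFA and XBP1. A few members counted in the lists are not reported here by name. Gene positions are from GENCODE for GRCh37 and promoter sequences from RefSeq for GRCh38.p14, in which 12977 tested genes had a match.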

Additional observations from a re-analysis of the deposited data

How the results depend on the processing

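The direct comparison called between 5087 and 5928 genes without single libraries, 7013 with edgeR and 5388 with the replicate block, beside 6409. No call of a named gene reversed under the alternatives run, but the counts and medians of several lists moved with the setting. The block gave a median of 1.09 for liver-type plasma proteins. The replicate numbers were not shown to pair the samples: the deviations of same-numbered libraries correlated at 0.14, 0.063 and 0.033, and shBMAL1 replicate 2 correlated best with shARNT replicate 3 (0.092). With edgeR the medians were 0.36 for oxygen sensing, pH and growth control, 0.34 for collagens and 1.46 for liver-type plasma proteins, and 2 NRF2 targets were higher in shBMAL1. With the count filter these were 0.36 for oxygen sensing, 1.46 for liver-type plasma proteins and 2 NRF2 targets, and with the GC correction also 2 NRF2 targets. With a threshold of 0.05, 1 clock output gene was higher in shBMAL1 and 3 ribosomal protein genes were higher in shARNT. The fit of all 9 libraries gave a complement median of 0.70, and 1 mitochondrially encoded gene higher in shBMAL1 and 0 higher in shARNT, against 3 and 1.

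Without single libraries, the counts higher in shBMAL1 were 1 to 2 for clock output, 1 to 3 for plasminogen and coagulation, 3 to 4 for interferon-stimulated genes, 2 to 6 for mitochondrially encoded genes, 7 to 12 for nuclear oxidative phosphorylation, 5 to 9 for DNA replication, 1 to 5 for mitosis, 1 to 2 for NRF2 targets and 1 to 2 for metallothioneins. The counts higher in shARNT were 3 to 5 for metalloproteinases and TIMPs, 0 to 1 for the IGF axis, 1 to 2 for complement, 3 to 7 for ribosomal proteins, 1 to 2 for mitochondrially encoded genes and 6 to 20 for nuclear oxidative phosphorylation. The medians ranged from 0.073 to 0.17 for the bHLH-PAS family, 0.30 to 0.37 for oxygen sensing, 0.62 to 0.76 for secreted hypoxia signals, 0.34 to 0.77 for metalloproteinases and TIMPs, 0.26 to 0.39 for collagens, 0.61 to 0.74 for complement, 0.73 to 1.52 for liver-type plasma proteins, -0.14 to -0.051 for interferon-stimulated genes, -0.045 to 0.047 for MHC class I, -0.0082 to 0.044 for DNA replication, 0.35 to 0.41 for the integrated stress response and -0.15 to -0.040 for cholesterol. The named genes lost their call in 42 such results and gained one in 4, and the cause was not tested. Each group had 3 libraries of similar depth, which limits what can be called among genes with few reads.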
